A study of Mus musculus with 74 samples.

Results

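The 10 genes described here, Rara, Rarb, Rarg, Rxra, Crabp1, Crabp2, Stra6, Dhrs3, Cyp26a1 and Stra8, carry retinoic acid signalling or answer to it, and they were picked by name out of the 37620 genes of the expression table. RNA-seq of mouse ES cells had been made for 35 libraries in 12 groups, all grown in serum. Nanog SunTag cells carry a Dox-inducible CRISPR activator and a guide RNA to the promoter of Nanog, and Nanog/Otx2 SunTag cells carry guide RNAs to Nanog and Otx2. Both were derived from wild-type E14Tg2a cells and were cultured for 72 h with or without LIF (10 ng/mL) and with or without Dox (1 µg/mL), so that the cells without Dox hold the same constructs. The Nanog SunTag groups had 3 libraries with LIF alone, 2 with LIF and Dox, 3 with neither and 3 with Dox alone. The Nanog/Otx2 SunTag groups had 3, 4, 4 and 4 libraries in the same order. 44iN cells lack Nanog and express it from a Dox-dependent transgene. They were sampled in LIF with Dox (2 libraries), 24 h after Dox was removed (2 libraries) and after long-term culture without Dox (2 libraries). Tg2a cells are wild-type and were grown in serum and LIF (3 libraries). Each SunTag guide set stands on a pair of clones (C1 and C2, or C1ON3 and C2ON3), 44iN is 1 line, and it differs from Tg2a by its derivation as well as by Nanog. The long-term 44iN cells were also kept in the drug G418, a selection that is not described for Tg2a cells, so that Nanog, derivation and drug cannot be told apart there. The titles give both C1 libraries with Dox alone of Nanog SunTag cells the same number (called C1-1a and C1-1b here). In 4 libraries the number in the title differs from that in the column name, and the title's was used. The column names of the Nanog/Otx2 SunTag libraries carry another prefix than all others, and the labels do not say what it stands for. Levels compared between Nanog/Otx2 SunTag and other cells may thus differ by set of libraries as well as by cells. Nothing in the labels says that replicates came from separate cultures, so p-values measure only the spread between these libraries, which may be technical.

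Retinoic acid is made in cells from retinol by dehydrogenases and is broken down by the Cyp26 enzymes. It binds the receptors RARα, RARβ and RARγ, which pair with an RXR on direct repeats of a short DNA element and switch from repression to activation when ligand is bound. In ES cells the pathway is known for driving exit from pluripotency, and several of its components, among them Rarb, Cyp26a1, Dhrs3, Stra6 and Stra8, are themselves classical retinoic acid targets. Crabp1 and Crabp2 carry retinoic acid in the cytoplasm, and Crabp2 is known to hand it to the receptors.

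The elements that the receptors bind were looked for in the RefSeq promoters of these genes (table of GRCm38.p6, 250 bases before to 50 after each start), which held 19 promoters of 9 of the 10 genes. The hexamers AGGTCA or AGGTGA and also AGTTCA or AGTTGA and also GGGTCA or GGGTGA and also GGTTCA or GGTTGA were searched on both strands, in any combination, as a direct repeat spaced by 1, 2 or 5 bases (DR1, DR2 and DR5). Of all 32851 promoters of the table, 0.609% held DR1, 0.472% DR2 and 0.323% DR5. Stra8 held a DR2, Rarb and Cyp26a1 each held a DR5, and none of the other promoters of the 10 genes held any of these letters. The 3 matches are shown because they sit in the genes that textbooks list as direct targets of the receptors, and the capitals mark the repeat with its spacer. The sequences are RefSeq's, each was found at 1 place in mm9, and they are written 5′ to 3′ on the strand of the gene.
Stra8: cctggatgGGGTGAAAAGGTCAtcttgctc
Rarb: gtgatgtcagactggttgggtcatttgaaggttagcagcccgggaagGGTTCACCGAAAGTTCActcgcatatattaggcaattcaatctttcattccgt
Cyp26a1: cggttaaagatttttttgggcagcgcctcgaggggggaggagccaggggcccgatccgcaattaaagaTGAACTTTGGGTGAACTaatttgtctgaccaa
The Stra8 stretch lies at chr6:34870738-34870767 (mm9, plus strand) in an exon annotated as untranslated, and its repeat runs from 202 to 189 bases before the RefSeq start. The Rarb stretch lies at chr14:17407991-17408090 (minus strand) inside the Rarb gene and outside its annotated exons, with the repeat 53 to 37 bases before the start. That of Cyp26a1 lies at chr19:37772198-37772297 (plus strand), upstream of the gene, with the repeat 32 to 16 bases before the start and on the opposite strand. A match is a description of letters, not a site of binding.

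Estimated counts summed to 6107512 to 92244655 per library (median 29298745), and the lowest total was that of a Nanog/Otx2 SunTag library with LIF and without Dox. Nanog, the targeted gene, averaged 24924 normalised counts without and 84519 with Dox in Nanog SunTag cells in LIF, 15880 with and 722.5 without Dox for 24 h in 44iN cells, and 251.9 in long-term 44iN against 19714 in Tg2a cells. Otx2 averaged 952.3 without and 3509 with Dox in Nanog/Otx2 SunTag cells in LIF, against 784 and 236.8 in Nanog SunTag cells. The defining ES cell markers (Pou5f1, Nanog, Zfp42, Esrrb, Klf4, Tfcp2l1, Tbx3 and Fgf4) were present in every group. Without Dox, all 8 of them fell on LIF withdrawal in Nanog SunTag cells and 7 of 8 in Nanog/Otx2 SunTag cells, and all rows tested of the 5 primed epiblast markers (Fgf5, Otx2, Pou3f1, Dnmt3b and Sox3) rose in both. The summed ES cell markers went from 114097 to 128481 down to 32830.6 to 34562.6 normalised counts and the primed epiblast markers from 3667.98 to 7189.64 up to 71471.4 to 84833.6 in Nanog SunTag cells. In Nanog/Otx2 SunTag cells they went from 124775 to 136195 down to 48908.7 to 53152 and from 4596.79 to 12130.6 up to 88921.1 to 101359. Of the markers of other cells that were tested without Dox, 2 of 3 for primitive streak, 1 of 3 for neural cells, 2 of 3 for trophoblast and 1 of 3 for fibroblasts rose in Nanog SunTag cells, while another neural marker and 5 of 6 for primitive endoderm fell. With both guides, 2 of 2 for primitive streak, 1 of 3 for neural cells, 2 of 2 for trophoblast and 2 of 3 for fibroblasts rose, another neural marker fell, and of 7 for primitive endoderm 1 rose and 1 fell. On LIF withdrawal with Dox, 5 of 8 ES cell markers fell in each guide set (1 rose in Nanog/Otx2 SunTag cells), and 4 of 5 and 6 of 6 rows of primed epiblast markers rose. Of the other lists, 1 of 3 neural markers rose and 1 of 3 for trophoblast, 1 of 3 for fibroblasts and 4 of 6 for primitive endoderm fell in Nanog SunTag cells. With both guides, 1 of 2 for primitive streak, 1 of 3 for neural cells, 2 of 2 for trophoblast and 1 of 3 for fibroblasts rose, and 1 each for neural cells, fibroblasts and primitive endoderm fell. The part of these markers in the changes with LIF below was not tested. In bulk libraries, fewer cells of a type and less RNA per cell cannot be told apart.

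Per kilobase of exon, Rarg was the most abundant receptor and Rarb the least in all 12 groups. Group means of Rarg lay between 509 and 1191 normalised counts per kilobase, those of Rara between 41.5 and 293, those of Rxra, the shared partner, between 44.0 and 173, and those of Rarb between 0.819 and 4.82. The libraries of Rarg never overlapped those of the receptor below it in the same group. Rara and Rxra could not be ordered in the 44iN and Tg2a groups and in Nanog/Otx2 SunTag cells with LIF and Dox, where their libraries overlapped, and elsewhere Rara stood above Rxra. Of the binding proteins, Crabp1 ranged from 77.8 to 1433 per kilobase and Crabp2 from 17.4 to 510. Crabp2 had the higher mean of the pair in the SunTag groups with neither LIF nor Dox and in no other group, without overlap in Nanog/Otx2 SunTag cells and with overlap in Nanog SunTag cells. Stra8 covered the widest range, from 4.00 to 303 per kilobase, while Stra6 (0.352 to 11.1) and Dhrs3 (1.42 to 36.8) stayed low throughout. Cyp26a1 (2.78 to 49.3) was highest in long-term 44iN cells. Its mean there stood above those of Rara (41.5) and Rxra (44.0), with libraries that overlapped.

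Withdrawal of LIF asks which genes change when the main external support of ES cell self-renewal is removed. Without Dox, Crabp2 rose and Crabp1 and Stra8 fell in both guide sets, and Stra6, Dhrs3 and Cyp26a1 rose in Nanog/Otx2 SunTag cells. Of 8 genes tested in Nanog SunTag cells, 1 rose and 2 fell, beside 20.2% of all 15624 genes that rose and 21.3% that fell (41.5% in either direction, edgeR's quasi-likelihood test, adjusted p under 0.05). In Nanog/Otx2 SunTag cells 4 of 9 rose and 2 fell, beside 24.6% and 25.2% of 15609 genes (49.8% in either direction). The 3 of 8 and 6 of 9 genes called stand against these shares, and nothing particular to the 10 genes follows from their number. The median log2 change was -0.37 over those tested in Nanog SunTag cells (-0.05 over all genes) and -0.10 in Nanog/Otx2 SunTag cells (-0.01 over all genes). With Dox, 1 rose and 2 fell of 8 in Nanog SunTag cells, beside 17.1% and 15.5% of all genes (32.6% in either direction). With both guides 4 rose and 3 fell of 9, beside 18.7% and 17.9% (36.5% in either direction). Genes entered the test with at least 10 normalised counts throughout some group, which Rarb did not reach in either guide set and Cyp26a1 did not reach in Nanog SunTag cells. Cyp26a1 in Nanog/Otx2 SunTag cells passed only through the groups without LIF, Stra8 in Nanog SunTag cells only through those with LIF, and Dhrs3 in Nanog/Otx2 SunTag cells through all groups but that with LIF alone.

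Induction by Dox asks how these genes respond to higher Nanog, or to Nanog with Otx2. Without LIF, Dox lowered Crabp2 in both guide sets and raised Crabp1 in Nanog/Otx2 SunTag cells. In LIF it raised Rxra and Crabp1 in Nanog/Otx2 SunTag cells. Of the 8 genes tested in Nanog SunTag cells in LIF none was called and 2 had an unadjusted p under 0.05 (DESeq2 called 0 too), where 0.563% of all genes were called. Nanog itself, the induced gene, was not called there by edgeR (1.74 ± 0.39, adjusted p = 0.0793) and was by DESeq2 (adjusted p = 0.0022). The lack of edgeR calls in this comparison therefore says little about the 8 genes. Without LIF 1 of 8 was called, and it fell, beside 5.14% of all genes (3.6% rose and 1.54% fell). In Nanog/Otx2 SunTag cells 2 of 9 rose in LIF, beside 22.9% of all genes (12.9% rose and 10% fell), and without LIF 1 rose and 1 fell, beside 17.3% (11.2% rose and 6.15% fell). The ES cell markers moved with Dox too, 7 of 8 rising without LIF in both guide sets (to summed levels of 90026.6 to 103182 and 96760.1 to 106194). Of the rows of primed epiblast markers 4 of 5 fell in Nanog and 3 of 6 fell and 1 rose in Nanog/Otx2 SunTag cells. The ES cell list and its sum hold Nanog, the targeted gene (5916 without and 51805 with Dox in Nanog SunTag cells, 4425 and 39530 with both guides). The primed epiblast row that rose was Otx2, targeted there (0.85 ± 0.13, adjusted p = 0.000566, edgeR). The rises of Nanog and Otx2 were set by the design. In LIF, Dox raised 2 and lowered 1 of the 8 ES cell markers of Nanog/Otx2 SunTag cells, and Nanog was among those raised (1.19 ± 0.34, adjusted p = 0.0196, edgeR). Markers of other cells moved there too, with 3 of 3 for fibroblasts rising (summed levels of 198.365 to 361.077 without and 605.711 to 803.997 with Dox), 2 of 2 for trophoblast rising (386.529 to 493.566 and 726.618 to 893.85), 1 of 2 for primitive streak rising and 2 of 3 for neural cells falling. The part of these markers in the responses to Dox was not tested. A fit blocked on clone called 4 of 9 in LIF in Nanog/Otx2 SunTag cells, gaining Rara (-0.47, adjusted p = 0.0183) and Dhrs3 (1.1, adjusted p = 0.0465). With clone and number as the block, Rara (-0.48, adjusted p = 0.00596), Dhrs3 (1.05, adjusted p = 0.0269) and Rarg (-0.44, adjusted p = 0.0172) were gained. Over all genes these blocks called 5831 and 6401, against 3577 of 15609 without a block. Nothing particular to the 10 genes follows from the number of calls gained. The difference between the Dox responses without and with LIF was not significant for any of the genes by edgeR without a block. In Nanog SunTag cells 0 of 8 were called, none with an unadjusted p under 0.05 and 0 by DESeq2, beside 1.93% of all genes. In Nanog/Otx2 SunTag cells 0 of 9 were called, 1 with an unadjusted p under 0.05 and 1 by DESeq2, beside 9.7%. Blocks of clone and of clone and number called Rxra there (adjusted p = 0.037 and 0.0218, edgeR), beside 2887 and 3407 of all genes. The Dox responses of the guide sets differed for none of 9 genes by edgeR or DESeq2 without LIF (0.0308% of 16210 genes called) or with LIF (0.037%), and none had an unadjusted p under 0.05.

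**Figure D1:**
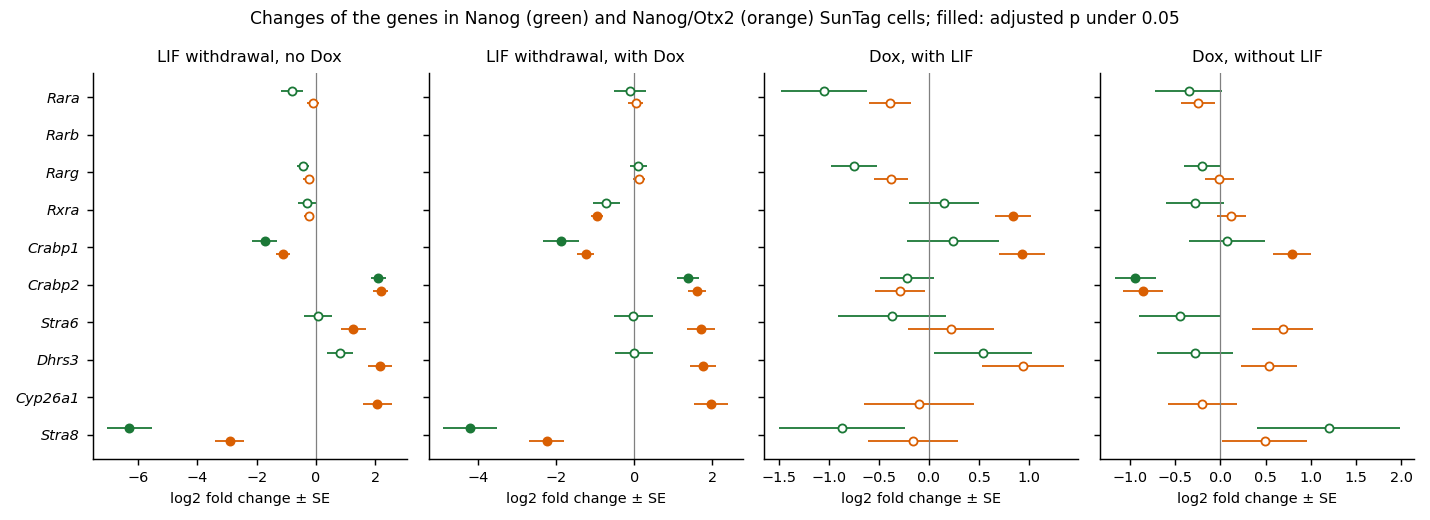
Log2 fold changes (x axis, with the standard error) of the 10 genes (y axis) on LIF withdrawal without and with Dox and on Dox with and without LIF, in Nanog SunTag cells (green) and Nanog/Otx2 SunTag cells (orange), with filled points for an adjusted p under 0.05 by edgeR. Stra8 reaches -6.29 and Crabp2 2.10 on LIF withdrawal without Dox in Nanog SunTag cells, and genes without a point did not pass the filter.

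Rara (ENSMUSG00000037992, chr11:98789132-98836256, plus strand), which encodes RARα, was not called in any comparison by edgeR without a block. With LIF alone, Nanog SunTag cells held it at 540.9 normalised counts in clone C1 and 1839 and 1640 in clone C2. It was at 617.3 and 682.6 with LIF and Dox, at 693.7, 592 and 1012 with neither, and at 461.3, 564.1 and 740 with Dox alone. The C2 libraries with LIF alone were above all others of these cells, and the C1 library was not. Its log2 change on LIF withdrawal without Dox was -0.82 ± 0.37 (SE; adjusted p = 0.0948, edgeR), and on Dox in LIF -1.05 ± 0.43 (adjusted p = 0.295). Without the C1 library with LIF alone these became -1.17 ± 0.23 (adjusted p = 0.00208) and -1.40 ± 0.27 (adjusted p = 0.0408). That fit sets C2 libraries alone against libraries of both clones, so clone and treatment cannot be told apart in it. Within C1, Rara was at 540.9 with LIF alone, 617.3 with LIF and Dox, and 693.7 and 592 with neither. Rara lay between 672.7 and 1507 in every library of Nanog/Otx2 SunTag cells, compared groups overlapped, and no change was called (log2 changes -0.39 to 0.04) except, in the fits with a block given above, the fall on Dox in LIF.

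Rarg (ENSMUSG00000001288, chr15:102065369-102087948, minus strand), encoding RARγ, was high in every SunTag library and, without a block, called in no comparison. It stood at 3639, 6326 and 4694 normalised counts with LIF alone in Nanog SunTag cells and at 2928 and 2910 with LIF and Dox, which did not overlap. The log2 change on Dox in LIF was -0.75 ± 0.23 and did not pass the test (adjusted p = 0.163, edgeR). It was at 3030, 3426 and 4413 with neither and at 2755, 3150 and 3349 with Dox alone. The change on LIF withdrawal without Dox was -0.45 ± 0.20 (adjusted p = 0.0916), and -0.59 ± 0.17 (adjusted p = 0.0146) without the C1 library with LIF alone. The second fit sets C2 libraries alone against libraries of both clones, so clone and LIF cannot be told apart in it. The 15 libraries of Nanog/Otx2 SunTag cells ranged from 3184 to 6119, the groups overlapped, and no comparison called it. Its change on Dox in LIF there was called only with clone and number as the block, and not when that number was taken from the column names (-0.38, adjusted p = 0.0641).

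Rxra (ENSMUSG00000015846, chr2:27531960-27618477, plus strand) encodes RXRα, the partner that all 3 RARs share. Nanog/Otx2 SunTag cells held 435.2, 464.2 and 754.6 normalised counts with LIF alone and 886.6, 829.1, 1152 and 915.4 with LIF and Dox. The cells without LIF held 563, 480.8, 438 and 377.3 without Dox and 498.4, 456.5, 512.5 and 510.3 with Dox. The libraries with LIF and Dox were the highest and overlapped no other group. Rxra rose on Dox in LIF (log2 change 0.84 ± 0.18, adjusted p = 0.00505, edgeR, but 0.0646 when all 35 libraries shared 1 fit) and fell on LIF withdrawal with Dox (-0.95 ± 0.16, adjusted p = 0.000423). The Dox response without LIF minus that with LIF was -0.71 ± 0.24 (adjusted p = 0.084), which passed in the fit blocked on clone (-0.73, adjusted p = 0.037) or on clone and number (-0.76, adjusted p = 0.0218), by DESeq2 (adjusted p = 0.0402) and without the C2ON3 library with LIF alone (-0.97 ± 0.20, adjusted p = 0.00755). The last fit keeps only C1ON3 libraries with LIF alone, so clone enters it too. Nanog SunTag cells held 195.5 in C1 and 538.1 and 578 in C2 with LIF alone, 445.8 and 535.5 with LIF and Dox, and 236.5 to 381.9 without LIF, and no change was called. With neither it was at 381.9 and 372.3 in C1 and 334.4 in C2, higher than with LIF alone in C1 and lower in C2. Without the C1 library with LIF alone the change on LIF withdrawal without Dox went from -0.29 to -0.61 ± 0.18 (adjusted p = 0.0173), and that with Dox, -0.72 in the full fit, to -0.71 ± 0.18 (adjusted p = 0.0094). The change without Dox then sets C2 libraries alone against both clones, so clone and LIF cannot be told apart in it.

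Rarb (ENSMUSG00000017491, chr14:17263356-17651381, minus strand), the RAR gene with the DR5 shown above, was low throughout. It reached at most 22.4 normalised counts in any of the 35 libraries, in clone C2 of Nanog SunTag cells with LIF and Dox. Without LIF, Nanog/Otx2 SunTag cells held it at 4.68, 2.64, 3.33 and 3.34 without Dox and at 15.8, 7.00, 16.5 and 5.26 with it. These groups did not overlap, but they rest on 2 to 17 counts per library, and no test was made.

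**Figure D2:**
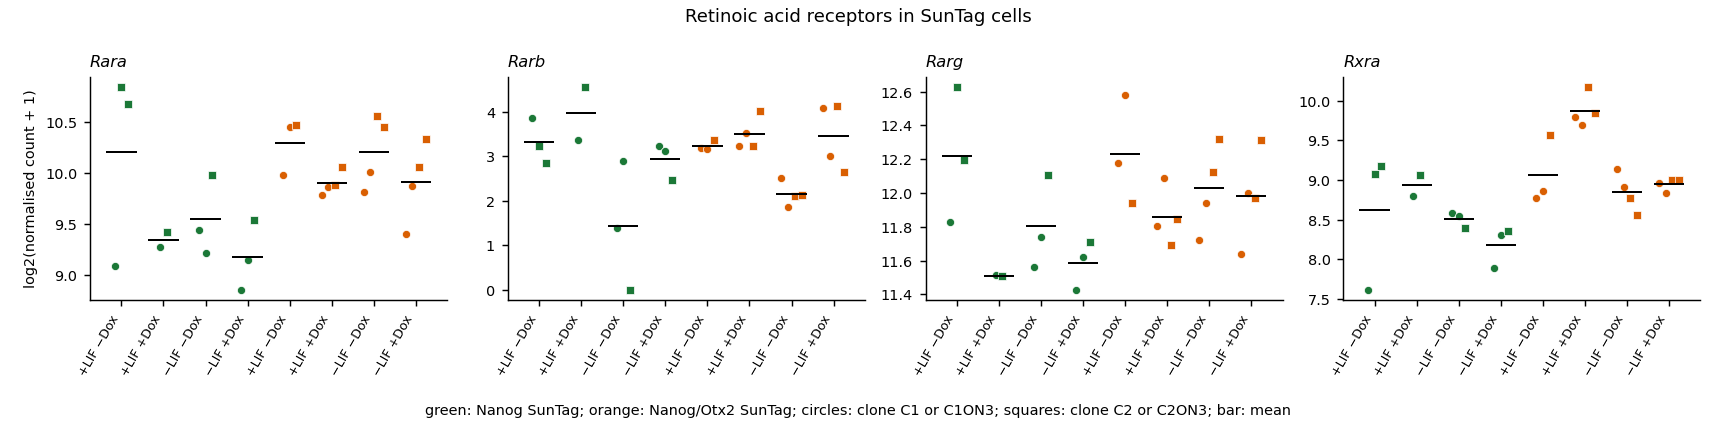
Normalised counts of the receptor genes (y axis, log2 of the count plus 1) in each SunTag group (x axis), with 1 point per library shaped by clone and a bar at the mean of the log2 values. Rxra is highest in Nanog/Otx2 SunTag cells with LIF and Dox (829.1 to 1152), and Rarb is low in every group.

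Crabp2 (ENSMUSG00000004885, chr3:87752588-87757298, plus strand), the binding protein that delivers retinoic acid to the receptors, was high in cells without LIF and less so when Dox was given. Nanog SunTag cells held it at 117.8, 187.7 and 146.1 normalised counts with LIF alone and at 126.8 and 134.6 with LIF and Dox. It reached 584.6, 754.9 and 630.6 with neither and 290.8, 444.1 and 270.2 with Dox alone. The 3 levels were separate, with LIF lowest, Dox without LIF between, and neither highest. Crabp2 rose 4.29-fold on LIF withdrawal without Dox (log2 change 2.10 ± 0.25, adjusted p = 6.67e-05, edgeR) and 2.6-fold with Dox (1.38 ± 0.28, adjusted p = 0.00389). On Dox without LIF it fell (-0.94 ± 0.23, adjusted p = 0.0377, higher in 3 of 3 libraries without Dox). This last call was lost in 7 of the 11 fits that left out 1 library, with adjusted p from 0.0503 to 0.202, the highest without the C1-1a library with Dox alone (-0.85 ± 0.28). The other 6 left out C1-1 with LIF and Dox, C2-2 with LIF alone, any of the 3 with neither, or C2-2 with Dox alone.

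The order was alike in Nanog/Otx2 SunTag cells. Crabp2 was at 195.1, 132.6 and 83.3 normalised counts with LIF alone and at 111.7, 134.2, 112.3 and 111.9 with LIF and Dox. It was at 747.2, 647.2, 662 and 639.9 with neither and at 551.6, 346.7, 274 and 276.2 with Dox alone. All libraries without LIF were above all with LIF, and those without Dox above those with Dox. It rose on LIF withdrawal without Dox (2.18 ± 0.26, adjusted p = 7.51e-06, edgeR) and with Dox (1.62 ± 0.23, adjusted p = 8.49e-05), and it fell on Dox without LIF (-0.86 ± 0.22, adjusted p = 0.0145). These 3 calls were kept in every fit that left out 1 library. In LIF, Dox changed it by -0.22 ± 0.27 in Nanog and -0.29 ± 0.25 in Nanog/Otx2 SunTag cells (adjusted p = 0.747 and 0.434). The Dox responses without LIF of the guide sets differed by 0.04 ± 0.33.

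Crabp1 (ENSMUSG00000032291, chr9:54612555-54620917, plus strand), whose product binds retinoic acid in the cytoplasm and is thought to favour its breakdown, moved the other way on LIF withdrawal. Nanog SunTag cells held it at 356.1 normalised counts in clone C1 and at 1148 and 1306 in C2 with LIF alone, and at 1168 and 1059 with LIF and Dox. It was at 280.9 and 169.3 in C1 and 408.1 in C2 with neither, and at 263.2, 238.3 and 384.9 with Dox alone. The groups without Dox overlapped through C1 and C2, and within each clone the libraries without LIF were lower. It fell on LIF withdrawal without Dox (log2 change -1.73 ± 0.43, adjusted p = 0.00766, edgeR) and with Dox (-1.89 ± 0.46, adjusted p = 0.00994). Without the C1 library with LIF and Dox the second call was lost (-1.82 ± 0.58, adjusted p = 0.059).

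Crabp1 in Nanog/Otx2 SunTag cells also rose on Dox. It stood at 552.6, 429.6 and 907.3 normalised counts with LIF alone and at 1087, 1051, 1315 and 1143 with LIF and Dox. Without LIF the libraries stood at 255.4, 281.3, 303.1 and 315 without Dox and at 348.4, 403.9, 548.1 and 640.5 with Dox. In each pair of conditions the groups were apart. It fell on LIF withdrawal without Dox (-1.12 ± 0.23, adjusted p = 0.000924, edgeR) and with Dox (-1.25 ± 0.21, adjusted p = 0.000325), and it rose on Dox in LIF (0.93 ± 0.23, adjusted p = 0.0105) and without LIF (0.79 ± 0.21, adjusted p = 0.0189). The rise in LIF was lost without either C1ON3 library with LIF alone (0.86 ± 0.28 and 0.71 ± 0.24, adjusted p = 0.055 and 0.0687), and the rise without LIF was lost without C2ON3-2 with Dox alone (0.62 ± 0.21, adjusted p = 0.063). Both were lost when all 35 libraries shared 1 fit (adjusted p = 0.0895 and 0.14). In cells with the Nanog guide alone, Dox changed it by 0.24 ± 0.46 in LIF and 0.07 ± 0.42 without. These responses differed from those of Nanog/Otx2 SunTag cells by 0.68 ± 0.51 in LIF and 0.67 ± 0.47 without (adjusted p = 0.678 and 0.901), so a difference between the guide sets was not shown.

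Stra6 (ENSMUSG00000032327, chr9:57911595-58001803, plus strand) encodes the membrane receptor that takes up retinol from its plasma carrier. Nanog/Otx2 SunTag cells held 13.4, 15.9 and 27.8 normalised counts with LIF alone and 24.0, 21.1, 11.2 and 20.9 with LIF and Dox. They held 47.8, 47.6, 29.2 and 39.0 with neither and 93.2, 87.6, 29.2 and 48.0 with Dox alone. All libraries without LIF were above all with LIF. It rose on LIF withdrawal with Dox (1.72 ± 0.36, adjusted p = 0.00174, edgeR) and without Dox (1.25 ± 0.42, adjusted p = 0.0227), the latter call being lost without any of 3 C1ON3 libraries (the pair with LIF alone, adjusted p = 0.113 and 0.0904, and 1 with neither, adjusted p = 0.0502). With Dox alone the C1ON3 libraries were higher than those of C2ON3. Stra6 was between 8.13 and 24.4 in every library of Nanog SunTag cells, the groups overlapped, and LIF withdrawal without Dox changed it by 0.06 ± 0.47 (adjusted p = 0.93). Whether the LIF responses of the guide sets differ was not tested for any of the 10 genes.

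Dhrs3 (ENSMUSG00000066026, chr4:144482730-144518112, plus strand), an enzyme that turns retinal back into retinol and so limits retinoic acid, rose with LIF withdrawal in Nanog/Otx2 SunTag cells. The libraries were at 20.1, 15.3 and 9.26 normalised counts with LIF alone and at 30.3, 22.6, 27.1 and 42.2 with LIF and Dox. They were at 129.1, 54.2, 65.8 and 47.9 with neither and at 154.7, 93.4, 99.0 and 83.5 with Dox alone. Every library without LIF was above every library with LIF, and in LIF those with Dox were above those without. The changes on LIF withdrawal were 2.16 ± 0.40 without Dox (adjusted p = 0.000413, edgeR) and 1.77 ± 0.33 with it (adjusted p = 0.000795), and both kept the call in every fit that left out 1 library. On Dox in LIF the change was 0.94 ± 0.41 (adjusted p = 0.109, with 0.0465 in the fit blocked on clone and 0.0458 without the C1ON3 library at 129.1). On Dox without LIF it was 0.54 ± 0.31 (adjusted p = 0.259), and 0.97 ± 0.27 (adjusted p = 0.0271) without that library. Nanog SunTag cells held Dhrs3 at 24.1, 67.0 and 31.2 with LIF alone and at 92.0, 85.3 and 43.0 with neither, which overlapped. The change there was 0.82 ± 0.44 (adjusted p = 0.158), and 1.37 ± 0.47 (adjusted p = 0.0447) without the C2 library at 67.0.

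Cyp26a1 (ENSMUSG00000024987, chr19:37772298-37776018, plus strand), the enzyme that oxidises and clears retinoic acid and a gene with a DR5 in its promoter, was low in SunTag cells. Nanog/Otx2 SunTag cells held it at 6.71, 6.23 and 9.26 normalised counts with LIF alone and at 11.5, 6.03, 3.74 and 4.58 with LIF and Dox. It was at 14.7, 27.7, 28.3 and 50.1 with neither and at 30.7, 26.9, 12.7 and 28.3 with Dox alone. The libraries with and without LIF did not overlap. It rose 4.19-fold on LIF withdrawal without Dox (2.07 ± 0.50, adjusted p = 0.0029, edgeR) and 3.91-fold with Dox (1.97 ± 0.44, adjusted p = 0.00278), and leaving out any 1 library kept both calls. Cyp26a1 entered these tests only through the groups without LIF, where it was high. Its levels with LIF rest on 2 to 11 counts per library without Dox and 4 to 11 with Dox. Dox changed it by -0.10 ± 0.55 with and -0.20 ± 0.38 without LIF (adjusted p = 0.92 and 0.766). The 11 libraries of Nanog SunTag cells held 2.68 to 36.0 normalised counts, and the highest was a C1 library with Dox alone. The Dox responses of Nanog/Otx2 cells minus those of Nanog cells were -1.52 ± 0.94 with and -1.26 ± 0.69 without LIF (adjusted p = 0.591 and 0.896).

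Stra8 (ENSMUSG00000029848, chr6:34870163-34889342, plus strand), named for its induction by retinoic acid and needed for entry into meiosis, had the largest changes of the 10 genes on LIF withdrawal in both guide sets. Nanog SunTag cells held it at 316, 997.4 and 325.8 normalised counts with LIF alone and at 190.2 and 403.7 with LIF and Dox. It was at 4.07, 6.46 and 11.1 with neither and at 5.01, 16.3 and 28.9 with Dox alone. Every library with LIF was above every library without it. It fell to 0.0128 of its level without Dox (log2 change -6.29 ± 0.76, adjusted p = 8.22e-05, edgeR) and to 0.0538 with Dox (-4.22 ± 0.69, adjusted p = 0.00133). Stra8 entered these tests only through the groups with LIF, where it was high, and the levels without LIF and Dox rest on 5, 5 and 9 counts. Single libraries moved these ratios, to 0.0216 without Dox when C2-1 with LIF alone (997.4) was left out, and with Dox to 0.0873 without C2-1 with LIF and Dox and to 0.0336 without C2-2 with Dox alone, all still called (adjusted p = 0.000214, 0.00999 and 0.00245, edgeR).

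Stra8 in Nanog/Otx2 SunTag cells was at 187.1, 150.8 and 226.8 normalised counts with LIF alone and at 143.1, 150.8, 156.3 and 201.5 with LIF and Dox. With neither it was at 11.4 and 7.93 in C1ON3 and 43.3 and 40.1 in C2ON3, and with Dox alone at 14.9, 25.7, 44.4 and 52.0. LIF again separated the libraries, and without LIF those of C2ON3 were above those of C1ON3. It fell on LIF withdrawal without Dox (-2.91 ± 0.49, adjusted p = 0.000169, edgeR) and with Dox (-2.25 ± 0.45, adjusted p = 0.00123). Dox changed it by -0.87 ± 0.63 and -0.16 ± 0.45 in LIF and by 1.20 ± 0.79 and 0.49 ± 0.47 without LIF in Nanog and Nanog/Otx2 SunTag cells (adjusted p = 0.558, 0.834, 0.484 and 0.526). The Dox response without LIF minus that with LIF was 2.07 ± 1.01 in Nanog SunTag cells (adjusted p = 0.367). The germ line markers Ddx4, Dazl, Sycp3 and Stra8 itself summed to 1960.09 to 3101.01 normalised counts with LIF alone and to 1553.75 to 1698.86 with neither in Nanog SunTag cells, where 2 of the 4 fell and none rose. They summed to 1575.02 to 1953.52 and 1554.65 to 1864.61 in Nanog/Otx2 SunTag cells, and 1 fell. Their part in the change of Stra8 was not tested.

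**Figure D3:**
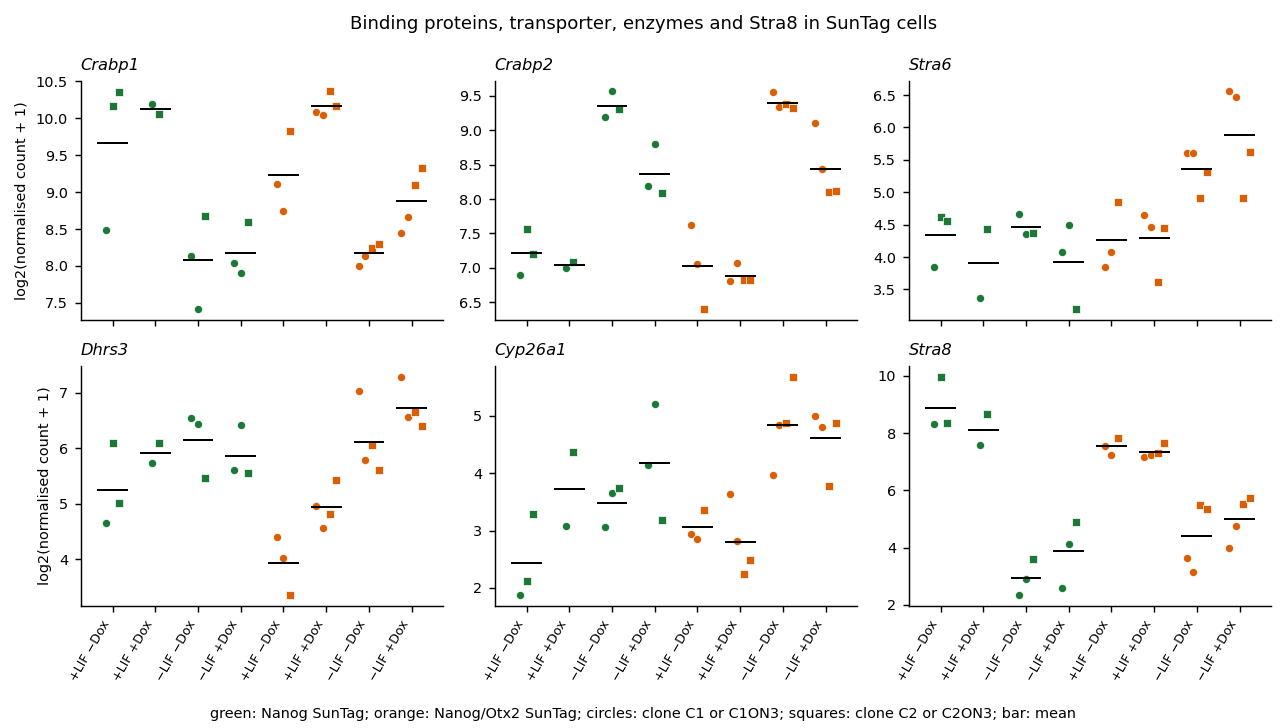
Normalised counts of the binding proteins, Stra6, Dhrs3, Cyp26a1 and Stra8 (y axis, log2 of the count plus 1) in each SunTag group (x axis), with 1 point per library shaped by clone and a bar at the mean of the log2 values. Crabp2 is high without LIF (270.2 to 754.9) and Stra8 is high with LIF (143.1 to 997.4) in both guide sets.

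Removal of Dox from 44iN cells asks what changes within 24 h of losing Nanog, and the comparison had 2 libraries on each side. None of the 8 genes tested was called by edgeR without a block or by DESeq2, and 3 had an unadjusted p under 0.05. Nanog itself was not called by edgeR either (log2 change with Dox 4.56 ± 0.30, adjusted p = 0.0902) and was by DESeq2 (adjusted p = 5.09e-40). The lack of edgeR calls therefore says little about these genes. An edgeR fit blocked on the library number called Crabp1 (1.38, adjusted p = 0.00168), Crabp2 (1.56, adjusted p = 0.0115) and Rxra (0.74, adjusted p = 0.0346). Of all 14376 genes, edgeR called 0% (7.12% had an unadjusted p under 0.05) and DESeq2 called 0.981%. Crabp1 was at 105 and 236.4 normalised counts with Dox and at 59.99 and 71.0 without, which did not overlap. Its log2 change with Dox was 1.48 ± 0.56 (adjusted p = 0.667, edgeR). Crabp2 was at 50.5 and 85.5 with and at 31.2 and 14.8 without Dox (1.63 ± 0.60, adjusted p = 0.638), again without overlap. Dhrs3 was at 13.9 and 17.1 with Dox and at 2.40 and 5.92 without, the latter from 1 and 2 counts, so no fold is given, and it passed the filter only through the libraries with Dox. Cyp26a1 was at 10.9 and 9.33 with and 38.4 and 11.8 without Dox (-1.22 ± 0.66, adjusted p = 0.784), having passed the filter only through the libraries without Dox, and Stra8 at 202.1 and 154 with and 336 and 213 without (-0.53 ± 0.40, adjusted p = 0.784).

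Both groups of 44iN cells overlapped for Rara (144.7 and 404.3 normalised counts with Dox, 216 and 390.4 without) and for Rarg (1625 and 2558 with, 2241 and 2692 without). Rxra, at 278.4 and 577 with and 218.4 and 304.7 without Dox, changed by 0.81 ± 0.47 (adjusted p = 0.784, edgeR). Stra6 (at most 2 counts in any of these libraries) and Rarb did not pass the filter. The first library with Dox was the lower for Rara, Rarg, Rxra, Crabp1 and Crabp2. Without it the log2 changes with Dox were 1.95 ± 0.53 for Crabp1, 1.24 ± 0.39 for Rxra and 1.96 ± 0.67 for Crabp2. The remaining library with Dox is then assumed to vary like those without.

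44iN cells kept long-term without Dox were set against wild-type Tg2a cells to ask how cells differ after lasting loss of Nanog. Crabp1 was lower and Cyp26a1 higher in the long-term 44iN cells. Of 10 genes tested 1 was higher and 1 lower, beside 3.35% of all 14937 genes that were higher and 5.26% that were lower (8.61% in either direction), and the median log2 difference was -0.56 over the 10 and -0.05 over all. Crabp1 stood at 54.65 and 70.2 normalised counts in 44iN cells and at 176.3, 235 and 346.3 in Tg2a cells (-2.09 ± 0.36, adjusted p = 0.0147, edgeR). The call was lost without either 44iN library or without the second Tg2a library (-1.94 ± 0.53, -2.33 ± 0.54 and -2.13 ± 0.42, adjusted p = 0.211, 0.122 and 0.0518). Cyp26a1 stood at 102.6 and 72.2 in 44iN cells, the highest levels of all 35 libraries, and at 29.7, 37.6 and 32.8 in Tg2a cells (1.31 ± 0.31, adjusted p = 0.0393). This call was kept without the third Tg2a library and lost without any 1 of the other 4, with changes from 1.02 to 1.50 and adjusted p from 0.0614 to 0.329, and it was lost when all 35 libraries shared 1 fit (adjusted p = 0.0618). The summed ES cell markers were at 44592.1 to 44931.2 in long-term 44iN cells and at 89165.6 to 102871 in Tg2a cells, 6 of 8 being lower. Nanog, which 44iN cells lack without the transgene, is in that list and sum (251.9 against 19714). Of the fibroblast markers, 2 of 3 were lower too (65.191 to 70.8275 against 134.359 to 473.606). Of the other lists, 2 of 4 rows of primed epiblast markers (15243.7 to 18372.2 against 7422.7 to 8831.58) and 1 of 7 for primitive endoderm were higher, and 2 of 4 germ line markers (2159.56 to 2354.55 against 3306.3 to 4022.27) and 1 of 3 for primitive streak were lower. The part of these markers in the differences was not tested.

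Stra8, at 193.2 and 119.2 normalised counts in long-term 44iN cells, was below Tg2a cells at 246.4, 242 and 336.4, but the difference of -0.89 ± 0.30 was not called by edgeR (adjusted p = 0.104) and was by DESeq2 (adjusted p = 0.0283). An edgeR fit blocked on the library number called Stra8 too (-0.77, adjusted p = 0.0113). Over all genes that fit called 4840 of 14937, against 1286 without a block. Rarb was at 4.79 and 2.72 in 44iN and at 10.1, 11 and 12.2 in Tg2a cells, and it passed the filter through Tg2a cells alone (-1.59 ± 0.43, adjusted p = 0.0576). Dhrs3 (10.1 and 12.9 against 16.5, 22.6 and 21.8) and Crabp2 (70.9 and 77.0 against 82.8, 82.8 and 114.5) were lower without overlap and were not called (-0.90 ± 0.36 and -0.41 ± 0.29, adjusted p = 0.153 and 0.402). Rara, Rarg, Rxra and Stra6 overlapped, with differences of -0.72, 0.04, -0.40 and 0.28 on the log2 scale. The fit blocked on number called Rarg (0.31, adjusted p = 0.05 after rounding, edgeR). For Rara the third Tg2a library, at 550.9, stood above the others, at 161.4 and 182.4.

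**Figure D4:**
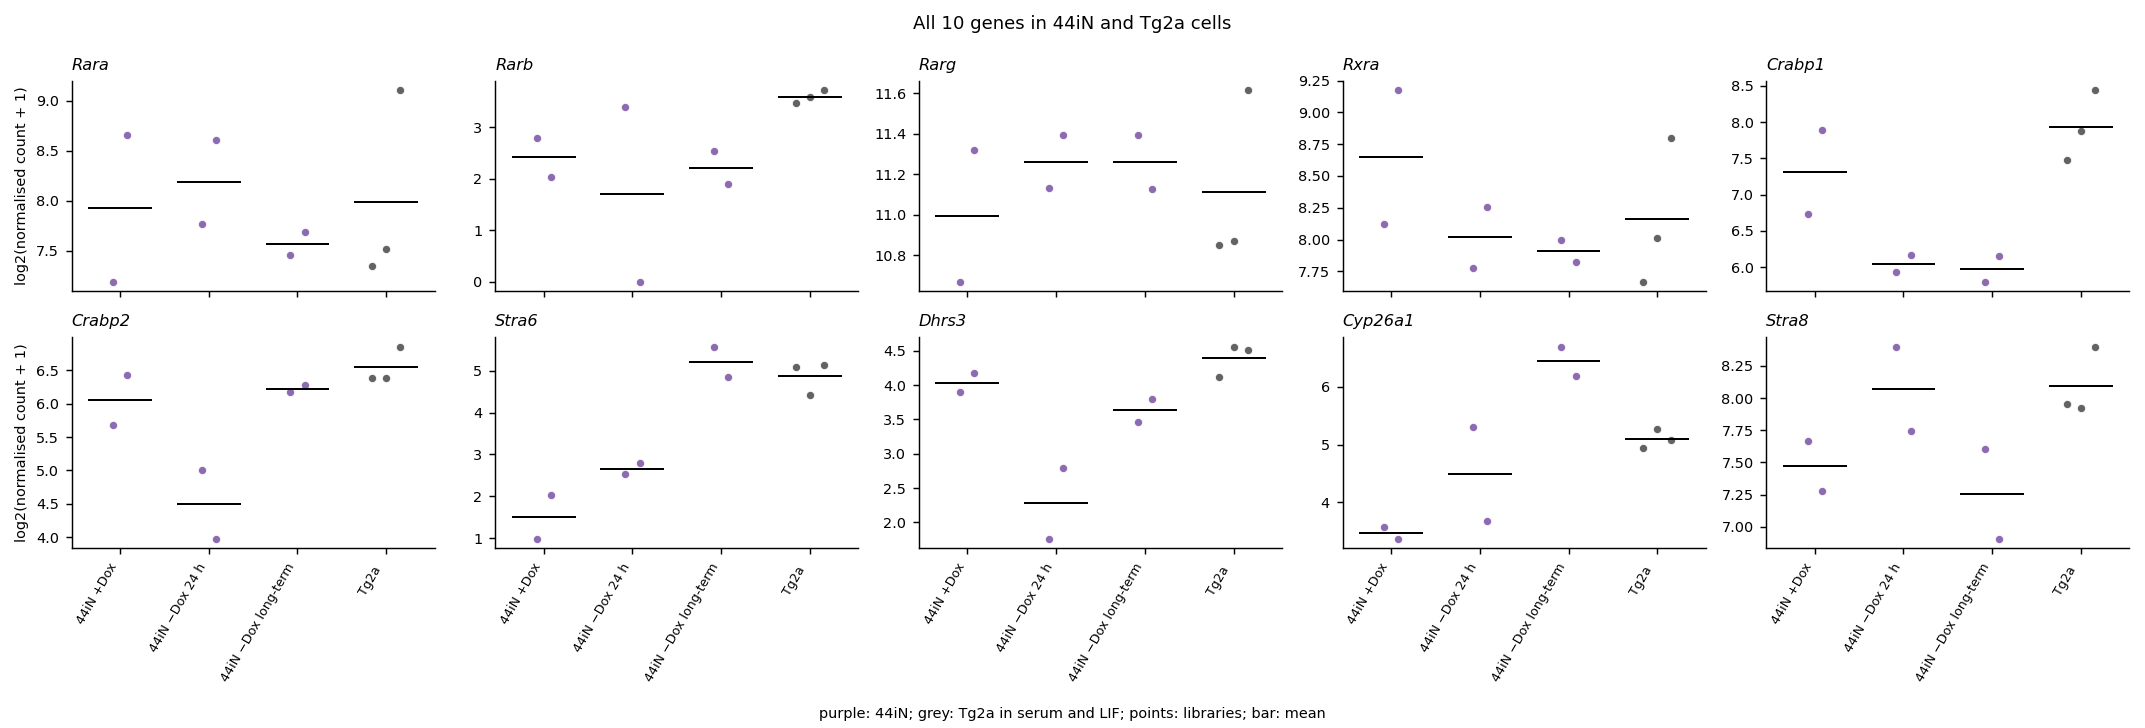
Normalised counts of the 10 genes (y axis, log2 of the count plus 1) in 44iN cells with Dox, 24 h and long-term without Dox, and in Tg2a cells (x axis), with 1 point per library and a bar at the mean of the log2 values. Long-term 44iN cells show the highest Cyp26a1 (72.2 and 102.6) and low Crabp1 (54.65 and 70.2).

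Around these genes, 38 others of the pathway were counted from a list (further RXRs, retinol binding and storage, synthesis and breakdown, coregulators and commonly described targets). On LIF withdrawal without Dox 8 rose and 10 fell of 27 tested in Nanog SunTag cells (41.5% of all genes called in either direction), and 11 rose and 8 fell of 29 in Nanog/Otx2 SunTag cells (49.8%). With Dox, 4 rose and 7 fell in the former (32.6%) and 9 rose and 7 fell in the latter (36.5%). On Dox in LIF 1 rose and 0 fell in Nanog (0.563%) and 5 rose and 1 fell in Nanog/Otx2 SunTag cells (22.9%). Without LIF 3 rose and 0 fell (5.14%) and 7 rose and 1 fell (17.3%), in the same order. Between long-term 44iN and Tg2a cells 4 of 26 were higher and 1 lower (8.61%), and none of 29 was called in 44iN cells at 24 h by edgeR (0%). The shares by direction are those given above, except for Dox in LIF in Nanog SunTag cells, where 66 of all 15624 genes rose and 22 fell. The list was not tested as a set.

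Rxrg, the third RXR gene, rose on LIF withdrawal without Dox in both guide sets (log2 change 2.96 ± 0.49, adjusted p = 0.000721, in Nanog and 2.94 ± 0.34, adjusted p = 5.71e-06, in Nanog/Otx2 SunTag cells, edgeR). Its libraries without Dox went from 2.68, 16.8 and 28.7 normalised counts with LIF to 109.9, 100.8 and 206.5 without in Nanog SunTag cells, and the change was 3.66 ± 0.57 (adjusted p = 0.000905) without C2-2 with LIF alone. Fabp5, which carries retinoic acid to PPARδ instead of the RARs, rose there too (1.23 ± 0.28, adjusted p = 0.00455, and 1.71 ± 0.22, adjusted p = 1.31e-05). Tgm2, a transglutaminase known as a retinoic acid target, fell on LIF withdrawal with Dox (-3.09 ± 0.29, adjusted p = 6.27e-05, and -1.52 ± 0.20, adjusted p = 3.54e-05). It fell without Dox too (-1.39 ± 0.26, adjusted p = 0.00154, and -0.54 ± 0.22, adjusted p = 0.0496). The last of these calls was lost in 11 of 15 fits that left out 1 library. Tgm2 rose on Dox in LIF in Nanog/Otx2 SunTag cells (1.16 ± 0.22, adjusted p = 0.00208), as did Rec8, a meiotic cohesin (1.13 ± 0.21, adjusted p = 0.00165). In Nanog SunTag cells in LIF, Tgm2 averaged 257.5 without and 662.1 with Dox, which was not called. Aldh1a3, a retinal dehydrogenase, fell on LIF withdrawal without and with Dox in Nanog SunTag cells (-1.17 ± 0.22, adjusted p = 0.00132, and -1.28 ± 0.23, adjusted p = 0.0022). These changes were 0.42 ± 0.23 and 0.17 ± 0.21 (adjusted p = 0.15 and 0.575) in Nanog/Otx2 SunTag cells, with libraries that overlapped.

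Aldh1a2, the retinal dehydrogenase that makes retinoic acid in the embryo, was low where both LIF and Dox were missing. Nanog SunTag cells held it at 11.4, 31.0 and 18.4 normalised counts with neither and at 172.6, 185.2 and 96.7 with Dox alone. With LIF it was at 77.7, 77.1 and 77.4 without and 98.9 and 131.9 with Dox. The libraries with neither were the lowest and did not overlap the others. It rose on Dox without LIF (2.96 ± 0.39, adjusted p = 0.00133, edgeR). Nanog/Otx2 SunTag cells held 20.0 to 26.4 with neither and 76.3 to 107.4 with Dox alone (2.11 ± 0.19, adjusted p = 7.44e-06), and the Dox response without LIF exceeded that in LIF by 1.44 ± 0.27 (adjusted p = 0.00397). Of the coactivators of nuclear receptors, Ncoa1 rose on Dox without LIF in both guide sets (1.27 ± 0.23, adjusted p = 0.00899, and 1.09 ± 0.12, adjusted p = 1.97e-05). Ncoa3 rose there in Nanog/Otx2 SunTag cells (1.08 ± 0.11, adjusted p = 1.2e-05) and in Nanog SunTag cells (1.00 ± 0.20, adjusted p = 0.0131), the latter call being lost without any of 4 libraries without LIF (C1-1 and C2-1 without Dox and both C1 libraries with Dox, 0.83 to 0.99, adjusted p up to 0.0777).

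**Figure D5:**
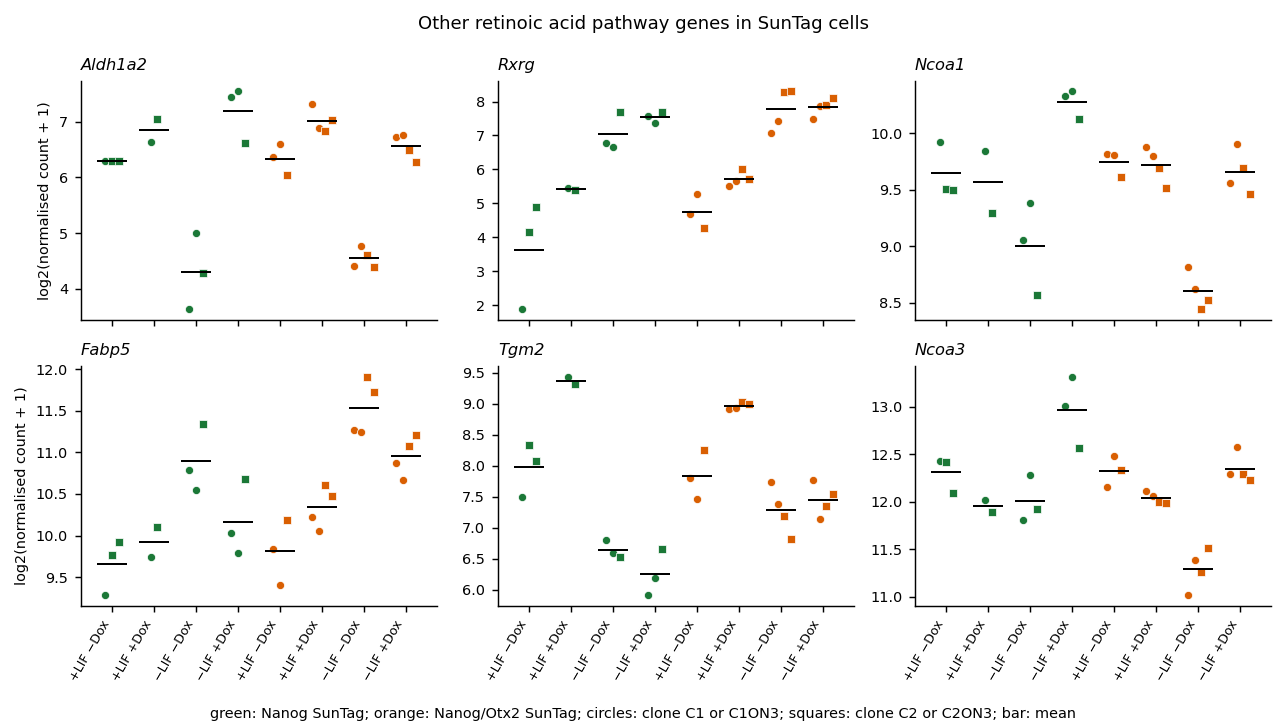
Normalised counts of Aldh1a2, Rxrg, Ncoa1, Fabp5, Tgm2 and Ncoa3 (y axis, log2 of the count plus 1) in each SunTag group (x axis), with 1 point per library shaped by clone and a bar at the mean of the log2 values. Aldh1a2 is lowest with neither LIF nor Dox (11.4 to 31.0), and Tgm2 is highest with LIF and Dox (479.3 to 690.1).

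The 12 group means share lines, may differ by set of libraries too, and are given as a description without a test. Across them, Pearson's r on the log2 scale was 0.896 between Crabp2 and Dhrs3 (0.833 over 11 groups, without 44iN cells at 24 h, where Dhrs3 rests on 1 and 2 counts), -0.795 between Crabp2 and Stra8, and 0.948 between Rara and Rarg. Stra8 and Crabp2 had the widest ranges of group means among those of the 10 genes that reached a mean of 100 normalised counts (6.06 and 4.81 on the log2 scale). Crabp1 followed at 4.18 and Dhrs3, without that group, at 3.12. Among 12846 genes, those most like Stra8 over the 12 groups were Cryz (r = 0.964), Polr3gl (r = 0.964) and Hscb (r = 0.963). Those most like Crabp2 were Dlg4 (r = 0.980), Zfat (r = 0.975) and Mxra8 (r = 0.975).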

How the data were processed

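The 35 libraries of poly(A) RNA are strand-specific RNA-seq. CASAVA (1.8), STAR, RSEM and DESeq2 are named in the submitters' processing notes and the methods. The deposited estimated counts are those that the authors obtained with RSEM on mm9, rounded to whole numbers. The other deposited table is a signal, namely those counts after the authors scaled each library with DESeq2's size factor (called normalised counts here). Both list 37620 genes. Libraries of Tg2a cells in 2i, ChIP-seq and ATAC-seq were not analysed here.

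Groups follow the labels for line, guides, LIF and Dox. Estimated counts were tested with edgeR 4.0.16 (R 4.3.3; TMM, quasi-likelihood) after keeping genes for which some group of the fit had no library under 10 normalised counts. A gene was called at an adjusted p (Benjamini-Hochberg, over the whole table) under 0.05. One model per guide set held LIF, Dox and the product of both, a joint model of the SunTag libraries gave the differences between guide sets, and the 44iN and long-term comparisons had models of their own. The standard error is the log2 change divided by the root of the F statistic. Values after ± are standard errors, and they and the p-values cover counting error and the spread of these libraries only. Alternatives were DESeq2 1.42.0, its size factors in edgeR, other filters, other sets of libraries, blocks and leaving out each library. The fits were tested on simulated data. Tables were handled with Python 3.11.15, pandas 2.3.3 and numpy 2.4.6, and figures drawn with matplotlib 3.10.9.

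The 10 genes and the lists of pathway genes and markers were chosen with earlier results of these data known. Of the 38 pathway genes, at most the 3 largest changes in each direction per comparison, if their higher group averaged 100 or more normalised counts, could be named, and not all are. The values of 1 gene of that list, which is in its counts, are not reported here. Genes most like a member were searched for the 3 members with the widest range, and those found for the third, Dhrs3, are left out because its range rests on a group of 1 and 2 counts. A group with at most 3 counts in all its libraries was given no fold. Counts per kilobase used the exon length of the GENCODE vM1 annotation of mm9. No exon of the 10 genes overlaps that of another gene.

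The SunTag clones are the same line in every condition and so pair the libraries. Deviations from the group means correlated within a clone (mean r = 0.208 in Nanog and 0.287 in Nanog/Otx2 SunTag cells, lowest -0.0716 and -0.124). Between clones the mean r was -0.200 and -0.287. Centring on the means of groups that hold a pair of clones mirrors the first values in these, so they add no separate evidence. In Nanog/Otx2 SunTag cells the libraries of 1 clone and number correlated in all 21 pairs (mean r = 0.364, lowest 0.177). The number is that of the title, and a fit with that of the column name, which differs in 1 of these libraries, was added after seeing the data (mean r = 0.371, lowest 0.156). Blocked values are given where they change a call. No pair of replicates agreed within counting noise.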

Additional observations from a re-analysis of the deposited data

Results flagged for a closer look

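Among 87 groups of 4 libraries tested (29 genes), 3 held a library far from the other 3, where chance gives about 1 in 20. Crabp2 stood at 134.2 normalised counts in C1ON3-2 of Nanog/Otx2 SunTag cells with LIF and Dox (the others at 111.7 to 112.3), and Adh5 at 11193 in the same library (10001 to 10196). Ncoa3 stood at 6111 in C1ON3-2 with Dox alone (4810 to 5016).

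In 11 cases an effect differed between conditions by the edgeR test of the difference itself. The Dox response without LIF minus that with LIF, on the log2 scale, was 1.38 ± 0.30 for Ncoa3 (adjusted p = 0.0394) and -1.69 ± 0.38 for Tgm2 (adjusted p = 0.0475) in Nanog SunTag cells. In Nanog/Otx2 SunTag cells it was 1.44 ± 0.27 for Aldh1a2 (adjusted p = 0.00397), -1.11 ± 0.28 for Fabp5 (adjusted p = 0.0216), 1.11 ± 0.17 for Ncoa1 (adjusted p = 0.00102), 1.35 ± 0.15 for Ncoa3 (adjusted p = 0.000138), -0.98 ± 0.29 for Tgm2 (adjusted p = 0.0484), 2.00 ± 0.44 for Nanog (adjusted p = 0.0104) and -1.02 ± 0.20 for Otx2 (adjusted p = 0.00476). On Dox, Otx2 rose in Nanog/Otx2 SunTag cells (0.85 without and 1.88 with LIF). In Nanog SunTag cells its changes were negative (-0.76 without LIF, not called, and -1.76 with LIF). The Dox response in Nanog/Otx2 minus that in Nanog SunTag cells was 1.57 ± 0.25 without LIF (adjusted p = 0.00914) and 3.63 ± 0.30 with LIF (adjusted p = 3.5e-07). Under the fits that left out 1 library, the Ncoa3 and Tgm2 values in Nanog SunTag cells reached adjusted p = 0.125 and 0.145, the Fabp5 and Tgm2 values in Nanog/Otx2 SunTag cells 0.0758 and 0.155, and the difference in the Otx2 response without LIF 0.0743 (lost in 1 of 26 fits, without the C1-1a library of Nanog SunTag cells with Dox alone).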

How the results depend on the processing

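Of 121 results for the 10 genes, 26 were called. Of these, 22 kept the call under all alternatives other than leaving out 1 library, and 18 under those fits too. No called change reversed. Under a replicate block of SunTag clone, calls among the 10 genes went from 2 to 4 for Dox with LIF in Nanog/Otx2 SunTag cells (5 with clone and number as the block, 4 with the number of the column names) and from 0 to 1 for the interaction there (1 with clone and either number, 1 by DESeq2), and the blocks changed no other call of these genes. For 44iN libraries, and for long-term 44iN and Tg2a libraries, the labels give a shared number and do not say whether it marks a pair. The r of the deviations of same-numbered libraries was 0.625 and 0.166. A block on that number gave 3 in place of 0 genes, and 4 in place of 2. With 1 fit of all libraries the numbers were 0 in place of 2 (Dox with LIF, Nanog/Otx2), 1 in place of 2 (Dox without LIF, Nanog/Otx2), 1 in place of 0 (44iN) and 1 in place of 2 (long-term). Leaving out 1 library gave 3 to 6 genes for LIF withdrawal without Dox and 2 to 4 with Dox in Nanog SunTag cells, 0 to 1 for Dox with LIF, 0 to 1 for Dox without LIF and 0 to 0 for the interaction. In Nanog/Otx2 SunTag cells it gave 5 to 6, 7 to 7, 1 to 3, 1 to 3 and 0 to 1 in the same order, 0 for the differences between guide sets, 0 to 3 in 44iN cells and 0 to 2 in the long-term comparison. Over all genes, the count of calls moved by more than 1.5 times as follows. For Dox with LIF in Nanog SunTag cells it was 88 by edgeR, 587 by DESeq2, 151 without the filter, 293 with the clone block, 0 with the pair of groups fitted alone and 792 with all libraries in 1 fit. For Dox without LIF it was 803 by edgeR, 1509 by DESeq2, 1375 with the block, 1951 with the groups alone and 1706 with all libraries, and for the interaction 302, 877 by DESeq2, 709 with the block and 1070 with all libraries. For Nanog/Otx2 SunTag cells the clone block, the block of clone and number and the fit of all libraries gave 5831, 6401 and 2093 against 3577 (Dox with LIF), 4690, 5215 and 1599 against 2702 (Dox without LIF) and 2887, 3407 and 905 against 1514 (interaction). The block with the number of the column names, chosen after seeing the data, gave 6519, 5398 and 3331 in the same order. Differences between guide sets went from 5 to 41 by DESeq2 and 10 with the block without LIF, and from 6 to 54, 17 and, with all libraries, 9 with LIF. For 44iN cells edgeR called 0, DESeq2 141, edgeR without the filter 434 (the median log2 change of all genes then being 0.11), the number block 1912 and all libraries 470. The long-term count of 1286 became 2294 by DESeq2, 4840 with the number block and 2115 with all libraries. At the lowest depth, 1 count of a gene is worth several normalised counts, which limits Cyp26a1, Rarb, Stra6 and Dhrs3.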
